A study of Mus musculus with 23 samples.

Results

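The genes described here encode the subunits of the mitochondrial respiratory chain and its ATP synthase, followed through male germ cell development in the mouse. They were chosen by symbol, with names that begin in Nduf followed by a, b, c, s or v, in Uqcr, in Cox4 to Cox8 or in Atp5, plus Sdha, Sdhb, Sdhc and Sdhd. The choice gave 90 of the 18193 genes that had a probe set naming 1 gene only. Of these, 86 passed the filter on low values, among 13087 genes that passed it in all, and Cox4i2, Cox6a2, Cox8b and Ndufb4 did not. The 90 were 34 complex I subunits, 8 complex I assembly factors whose names share the prefix, 4 complex II subunits, 8 of complex III, 11 general complex IV subunits, 3 testis isoforms and 5 other tissue isoforms of complex IV, and 17 of the ATP synthase. Counted among the 11 was Cox7a2l, a supercomplex factor, and among the 5 was Ndufa4l2, a paralogue of Ndufa4. Cox7b was not analysed here, and Ndufa11 and Ndufs6 were measured only by probe sets that name several genes.

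RNA of sorted germ cell fractions was hybridised to Affymetrix arrays, 1 fraction to an array. Wild-type cells came from C57BL6xDBA2J F1 males of 10 to 16 weeks, with 4 arrays of spermatogonia, 3 of pre-leptotene cells, 3 of leptotene/zygotene cells, 1 of early pachytene, 2 of mid pachytene, 1 of late pachytene, 2 of diplotene cells and 4 of round spermatids. Spo11-/- males, of the same ages and with a strain that the labels do not name, gave 1 array each of spermatogonia, pre-leptotene and leptotene/zygotene cells. Cells of 2 collections, from 4 and 3 mice, were combined for these arrays. Spo11 makes the DNA double-strand breaks that start meiotic recombination, and spermatocytes that lack it arrest in prophase, so that later fractions are absent from such testes. No comparison group carried another treatment. Replicates are named biological in the labels, which do not tie an array to its animals, and p-values cover only the spread between arrays.

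The respiratory chain passes electrons from NADH through complex I, or from succinate through complex II, to ubiquinone, then through complex III and the small carrier cytochrome c to complex IV, which reduces oxygen. Complexes I, III and IV pump protons, and the ATP synthase, also called complex V, uses the proton gradient to make ATP. Complex II is wholly nuclear encoded, while the other complexes also hold subunits of the mitochondrial genome, which the choice by symbol did not take in. Several small complex IV subunits have paralogues used in particular tissues, and testis has its own: Cox6b2 for Cox6b1, Cox7b2 for Cox7b and Cox8c for Cox8a, beside the testis cytochrome c, Cyct, for Cycs.

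The RNA of the testis isoforms Cox6b2 and Cox7b2 and the general forms Cox6b1 and Cox8a changed along the course, as given below. The windows at the start sites of these 4 genes, which the RefSeq table for GRCm38.p6 held, are shown first. Each runs 5′ to 3′ on the minus strand over 300 bases, with 250 before the gene's start and 50 from it on. Capitals mark matches to CCGGAAG, letters bound by ETS factors such as GABP, on either strand. The windows were searched on both strands for CCGGAAG, for the NRF1 letters (GCGCA, any base, GCGC), for TGACGTCA (CRE) and for AAGATGGC (YY1), none of which overlap in these windows.
Cox6b2, chr7:4753045-4753344: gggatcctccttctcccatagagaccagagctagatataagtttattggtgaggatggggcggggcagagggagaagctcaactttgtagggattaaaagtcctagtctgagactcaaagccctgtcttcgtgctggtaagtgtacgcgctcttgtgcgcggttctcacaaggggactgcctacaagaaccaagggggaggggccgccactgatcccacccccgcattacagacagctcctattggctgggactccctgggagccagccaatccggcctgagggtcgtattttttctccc
Cox7b2, chr5:71548156-71548455: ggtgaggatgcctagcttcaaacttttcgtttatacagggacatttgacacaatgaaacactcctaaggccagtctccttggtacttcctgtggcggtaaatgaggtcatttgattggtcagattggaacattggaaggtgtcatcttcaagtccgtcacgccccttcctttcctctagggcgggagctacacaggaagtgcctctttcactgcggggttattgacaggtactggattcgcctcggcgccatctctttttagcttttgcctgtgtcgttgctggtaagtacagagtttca
Cox6b1, chr7:30626065-30626364: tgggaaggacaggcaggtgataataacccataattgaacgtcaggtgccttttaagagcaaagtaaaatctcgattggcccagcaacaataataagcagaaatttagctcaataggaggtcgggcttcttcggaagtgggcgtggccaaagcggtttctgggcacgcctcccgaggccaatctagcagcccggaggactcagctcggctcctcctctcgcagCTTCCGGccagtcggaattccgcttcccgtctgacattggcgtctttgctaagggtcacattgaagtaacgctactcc
Cox8a, chr19:7217567-7217866: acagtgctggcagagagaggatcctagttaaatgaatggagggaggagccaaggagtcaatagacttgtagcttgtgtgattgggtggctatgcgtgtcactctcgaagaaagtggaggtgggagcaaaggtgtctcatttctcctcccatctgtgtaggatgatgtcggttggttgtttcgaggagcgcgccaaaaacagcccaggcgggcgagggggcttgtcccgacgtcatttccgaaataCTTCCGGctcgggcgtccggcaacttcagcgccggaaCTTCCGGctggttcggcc
None of the 4 sets of letters was in the windows of Cox6b2 and Cox7b2, while Cox6b1 held 1 match to the ETS letters and Cox8a held 2. Over 79 windows of 74 respiratory chain genes, the ETS letters stood in 24.1%, against 8.86% of all 32851 windows of this length in the table. The NRF1 letters stood in 22.8%, against 4.60% of all windows, the YY1 letters in 12.7%, against 2.75%, and the CRE letters in 3.80%, against 1.79%. A match describes the letters only.

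Values are log2(intensity + 1) on the array and changes are differences of log2, so that 1 is a doubling. The words rose and fell are used where the change was log2 1 or more and limma's p, adjusted over every gene in the fit, was under 0.05. Levels of different genes are not set against each other, since probe sets differ in brightness. Of 8 spermatogonia markers 8 fell in round spermatids against spermatogonia, against 35.3% of all genes. Late prophase markers rose there in 7 of 7 cases and spermatid markers in 3 of 9, against 30.2% of all genes. Kit, a receptor of differentiating spermatogonia, lay between 10.60 and 11.48 in wild-type spermatogonia and was at most 5.03 in round spermatids. Against diplotene cells 7 of 9 spermatid markers rose, against 12.5%. Early prophase markers rose in 0 of 7 cases in leptotene/zygotene against pre-leptotene cells, against 3.03% of all genes. Leukocyte (3 of 5) and peritubular and stromal markers (3 of 6) fell in pre-leptotene cells against spermatogonia, against 1.64%. Wild-type spermatogonia arrays also held RNA of later stages: Tnp1, a transition protein of spermatids, lay between 13.09 and 15.23 in them, against 2.71 in the Spo11-/- spermatogonia array. The summed level of 7 late prophase markers ran between 12.37 and 14.48 in wild-type spermatogonia, 11.01 and 12.56 in pre-leptotene cells, and 13.67 and 14.90 in leptotene/zygotene cells, and was 8.55, 7.63 and 8.54 in the Spo11-/- arrays of these fractions. In sorted pools of cells, fewer cells of a type and less RNA per cell cannot be told apart. In mid pachytene and diplotene the second array was below the first for 73 and 75 of the 86 genes, by medians of -0.53 and -0.60, against 59.4% and 62.1% of all genes tested.

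Across the course, most respiratory chain genes moved less than the other genes of these cells, and a small group moved a great deal. The 8 fraction means of a gene spanned under log2 1 for 25 of the 86, or 29.1%, against 11.5% of all genes tested, and over log2 3 for 15, or 17.4%, against 40.9%. The median span was 1.38 for the 86 genes and 2.54 for all genes. The lowest mean lay in round spermatids for 41 of them, or 47.7%, against 27.02% of all genes.

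In pre-leptotene cells against spermatogonia 0 of the 86 rose and 0 fell, against 0.0611% and 1.64% of all genes and 1.7% in either direction, and in limma 0 had an unadjusted p under 0.05. In leptotene/zygotene against pre-leptotene cells 4 rose and 0 fell, or 4.65% in all, against 3.03% and 0.0764% of all genes and 3.11% in either direction. In mid pachytene against leptotene/zygotene cells 6 rose and 4 fell, or 11.6%, against 14.2% and 15.2% of all genes and 29.3% in either direction, and with quantile normalization 4 rose and 6 fell. In diplotene against mid pachytene cells 2 rose and 11 fell, or 15.1%, against 6.98% and 14.5% of all genes and 21.5% in either direction. In round spermatids against diplotene cells 0 rose and 5 fell, or 5.81%, against 12.5% and 12% of all genes and 24.4% in either direction, and with arrays centred on their medians 1 rose and 3 fell. Round spermatids against spermatogonia, the ends of the course, gave 11 genes that rose and 31 that fell, or 48.8%, against 65.4% of all genes. These were 12.8% that rose and 36.0% that fell, against 30.2% and 35.3% of all genes, and the median change was -0.52, against -0.16 for all genes. Centring each array on its median moved the median of all genes by 0.40, to 0.23, and that of the 86 genes to -0.12, with 16 that rose and 24 that fell, and quantile normalization gave 8 and 37; relative to all genes the 86 differed by -0.35, -0.35 and -0.77. Adjacent comparisons share a fraction, and each gene's values are therefore given side by side below.

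The testis isoforms of complex IV rose in steps through meiotic prophase. Cox6b2, a small subunit on the face of complex IV that docks cytochrome c, measured 10.33, 10.94, 9.97 and 9.96 in spermatogonia, 9.47, 10.89 and 9.70 in pre-leptotene cells, 11.16, 11.42 and 12.08 in leptotene/zygotene cells, 13.29 in early pachytene, 14.14 and 14.14 in mid pachytene, 14.58 in late pachytene, 14.57 and 14.40 in diplotene cells, and 14.32, 14.59, 14.53 and 13.93 in round spermatids. Every array of leptotene/zygotene cells lay above all earlier ones, and every array of later fractions above those. It rose by 1.54 ± 0.36 (SE) in leptotene/zygotene against pre-leptotene cells (limma, adjusted p = 0.0323) and by 2.58 ± 0.41 in mid pachytene against leptotene/zygotene cells (limma, adjusted p = 0.000409), after which its changes were 0.34 ± 0.45 and -0.14 ± 0.39, neither past the test. Over the whole course it was 14.34 ± 0.30 in round spermatids and 10.30 ± 0.46 in spermatogonia (SD, n = 4 each), a rise of 4.04 ± 0.32.

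Cox8c, the testis form of the smallest subunit group of complex IV, measured 7.48, 9.07, 6.81 and 8.14 in spermatogonia, 6.36, 8.35 and 7.09 in pre-leptotene cells, 9.38, 9.50 and 10.82 in leptotene/zygotene cells, 12.47 in early pachytene, 12.76 and 12.84 in mid pachytene, 12.90 in late pachytene, 12.95 and 12.93 in diplotene cells, and 12.76, 12.90, 12.70 and 12.69 in round spermatids. The spermatogonia and pre-leptotene arrays overlapped widely, and from early pachytene on the 10 arrays lay within a narrow band. It rose by 2.63 ± 0.53 in leptotene/zygotene against pre-leptotene cells (limma, adjusted p = 0.0183), by 2.90 ± 0.60 in mid pachytene against leptotene/zygotene cells, and by 4.89 ± 0.46 in round spermatids against spermatogonia.

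Cox7b2, the testis form of Cox7b, measured 9.99, 9.78, 9.82 and 9.52 in spermatogonia, 9.75, 9.54 and 8.85 in pre-leptotene cells, 10.74, 10.77 and 10.86 in leptotene/zygotene cells, 12.33 in early pachytene, 12.75 and 12.89 in mid pachytene, 13.29 in late pachytene, 13.27 and 13.13 in diplotene cells, and 13.02, 12.92, 12.85 and 12.24 in round spermatids. It had the tightest leptotene/zygotene arrays of the 3 testis isoforms, with no overlap with the fractions on either side. Its rises were 1.41 ± 0.26 in leptotene/zygotene against pre-leptotene cells (limma, adjusted p = 0.0128), 2.03 ± 0.29 in mid pachytene against leptotene/zygotene cells and 2.98 ± 0.22 in round spermatids against spermatogonia. The rises in leptotene/zygotene cells, of these isoforms and of Ndufaf3 below, rested on few arrays: without the third pre-leptotene or the third leptotene/zygotene array 0 of the 4 genes passed, without the first pre-leptotene array 1 did and without the second leptotene/zygotene array 2 did. Late prophase markers moved with them, 5 of 7 rising in the same comparison, against 3.03% of all genes. The part of these markers in the rises was not tested.

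**Figure D1:**
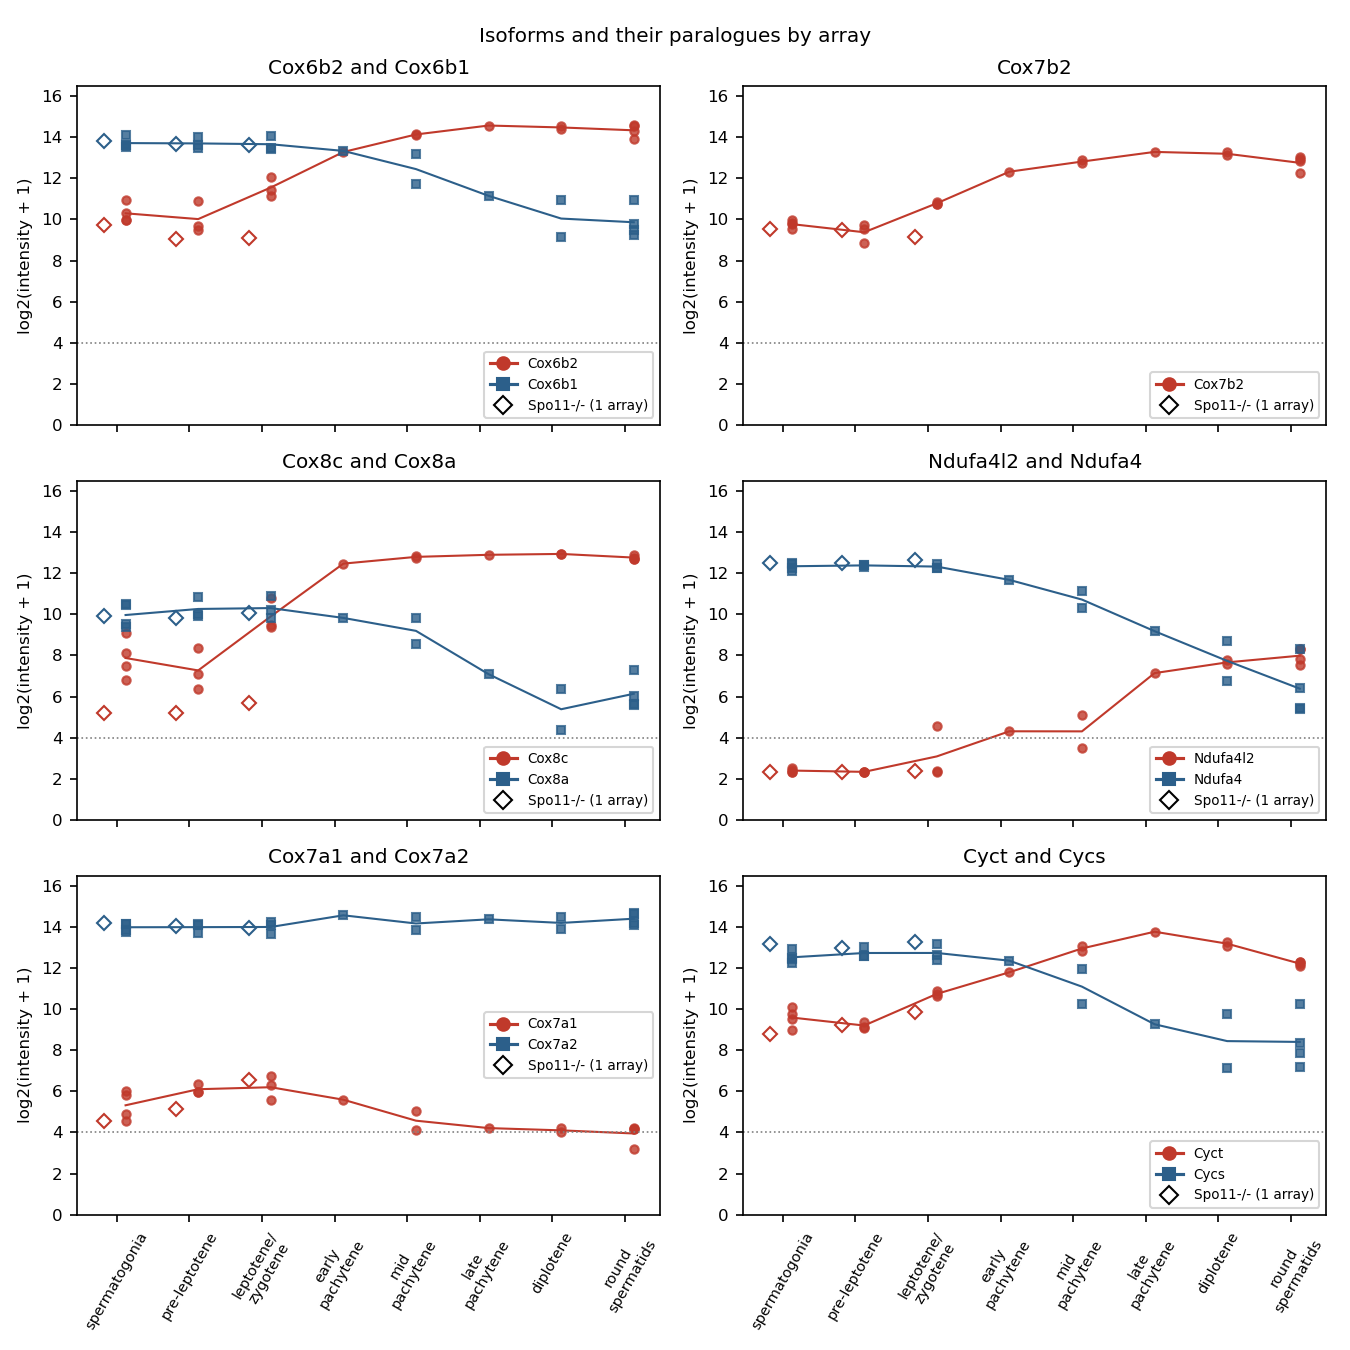
Log2(intensity + 1) of each isoform (red) and its general paralogue (blue) on every wild-type array, by fraction in developmental order, with lines through the fraction means, open diamonds for the single Spo11-/- arrays and a dotted line at log2 4, the floor of the filter. Cox6b2, Cox7b2, Cox8c, Ndufa4l2 and Cyct climb through prophase while Cox6b1, Cox8a, Ndufa4 and Cycs decline, and Cox7a2 stays between 13.65 and 14.67 on the wild-type arrays; heights of different genes are not comparable.

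The general paralogues Cox6b1 and Cox8a fell, with their first calls in diplotene cells. Cox6b1 measured 14.12, 13.51, 13.63 and 13.61 in spermatogonia, 14.04, 13.61 and 13.47 in pre-leptotene cells, 14.07, 13.47 and 13.45 in leptotene/zygotene cells, 13.34 in early pachytene, 13.18 and 11.72 in mid pachytene, 11.15 in late pachytene, 10.93 and 9.16 in diplotene cells, and 10.94, 9.78, 9.51 and 9.23 in round spermatids. The first 3 fractions and early pachytene lay within log2 1 of each other, and the lower values began with 1 of the 2 mid pachytene arrays. It fell by 2.41 in diplotene against mid pachytene cells (SE 0.60, limma adjusted p = 0.00847), a call that ended without the first mid pachytene array (adjusted p = 0.136) or the second diplotene array (adjusted p = 0.148), and by 3.86 in round spermatids against spermatogonia (SE 0.42). Round spermatids averaged 9.87 ± 0.75 and spermatogonia 13.72 ± 0.27 (SD, n = 4 each).

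Cox8a measured 10.45, 9.53, 9.39 and 10.49 in spermatogonia, 10.82, 10.04 and 9.93 in pre-leptotene cells, 10.92, 9.80 and 10.20 in leptotene/zygotene cells, 9.83 in early pachytene, 9.83 and 8.56 in mid pachytene, 7.09 in late pachytene, 6.38 and 4.38 in diplotene cells, and 7.28, 6.001, 5.60 and 5.65 in round spermatids. It was lowest on the second diplotene array, close to the floor of the filter. It fell by 3.82 in diplotene against mid pachytene cells (SE 0.69, limma adjusted p = 0.00102) and by 3.83 in round spermatids against spermatogonia (SE 0.48). Round spermatids against diplotene cells gave 0.75 ± 0.59, which did not pass.

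Ndufa4, once counted with complex I and now placed in complex IV, had the widest course of all 86 genes. It measured 12.51, 12.13, 12.26 and 12.47 in spermatogonia, 12.43, 12.32 and 12.40 in pre-leptotene cells, 12.45, 12.28 and 12.25 in leptotene/zygotene cells, 11.68 in early pachytene, 11.12 and 10.32 in mid pachytene, 9.18 in late pachytene, 8.73 and 6.74 in diplotene cells, and 8.29, 6.43, 5.43 and 5.38 in round spermatids. The 10 arrays up to leptotene/zygotene lay within log2 1 of each other, and each later fraction mean was lower than the one before. Round spermatids averaged 6.38 ± 1.36 and spermatogonia 12.34 ± 0.18 (SD, n = 4 each), a fall by 5.96 (SE 0.52, limma adjusted p = 3.33e-08). Its paralogue Ndufa4l2, known elsewhere as a gene induced by low oxygen, was below the floor on every spermatogonia array, at 2.35, 2.499, 2.33 and 2.40. It measured 2.37, 2.33 and 4.55 in leptotene/zygotene cells, 4.31 in early pachytene, 3.502 and 5.10 in mid pachytene, 7.14 in late pachytene, 7.76 and 7.56 in diplotene cells, and 7.51, 8.30, 8.30 and 7.85 in round spermatids. In round spermatids it was therefore higher than in spermatogonia by at least 3.99, against spermatogonia at the floor of log2 4 (fitted change 5.59 ± 0.42, limma adjusted p = 7.06e-09). It rose by 3.36 ± 0.60 in diplotene against mid pachytene cells, the step at which Ndufa4 fell by 2.99 (SE 0.74).

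The remaining tissue isoforms gave little signal. Cox7a1, the form of Cox7a2 used in heart and skeletal muscle, measured 4.19, 4.19, 4.23 and 3.19 in round spermatids, at the edge of the floor, and 6.003, 4.88, 4.58 and 5.83 in spermatogonia. It fell by 1.63 in mid pachytene against leptotene/zygotene cells (SE 0.47, limma adjusted p = 0.0149) and by 1.37 in round spermatids against spermatogonia (SE 0.36). The mid pachytene call ended without the second mid pachytene array (adjusted p = 0.214) or the first leptotene/zygotene array (adjusted p = 0.0603). Cox7a2 itself measured 14.67, 14.64, 14.20 and 14.12 in round spermatids and 14.17, 14.16, 13.78 and 13.86 in spermatogonia, and its change of 0.42 ± 0.23 did not pass. Cox4i2, a lung form of Cox4i1, stayed between 2.33 and 2.801 on the wild-type arrays. Cox6a2 and Cox8b, muscle forms of Cox6a1 and Cox8a, each reached the floor on the early pachytene array only, at 4.05 and 4.01. The general forms Cox4i1 and Cox6a1 averaged 13.84 and 14.45 in round spermatids and 14.40 and 15.33 in spermatogonia, and their changes of -0.56 ± 0.16 and -0.87 ± 0.20 had adjusted p-values of 0.00489 and 0.000869 in limma but were below log2 1.

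A difference between isoform and paralogue within each array shows whether the 2 genes changed unequally. For Cox6b2 minus Cox6b1 the difference was 3.38, 4.81, 5.02 and 4.70 in round spermatids and -3.79, -2.57, -3.66 and -3.65 in spermatogonia. The change of this difference was 7.90, and it was 8.72 for Cox8c minus Cox8a, 11.55 for Ndufa4l2 minus Ndufa4 (9.95 with values of Ndufa4l2 below the floor set to it), 6.74 for Cyct minus Cycs and -1.79 for Cox7a1 minus Cox7a2. In all 5 pairs the 4 round spermatid arrays and the 4 spermatogonia arrays did not overlap, and the exact two-sided permutation p was 0.0286 for each, the smallest that 4 against 4 arrays allow, with an adjusted p of 0.0286 over the 5 pairs. A correlation check matched these arrays by replicate number, although the labels do not state pairs. With the differences paired by number the exact sign-flip p was 0.125 for each pair, the smallest that 4 pairs allow, so the paired design cannot reach 0.05. The difference of Cox6b2 and Cox6b1, relative to spermatogonia, was -0.27 in pre-leptotene cells, 1.31 in leptotene/zygotene cells, 3.37 in early pachytene, 5.11 in mid pachytene, 6.84 in late pachytene, 7.86 in diplotene cells and 7.90 in round spermatids. Pairs with Cox7b, Cox4i2, Cox6a2 and Cox8b could not be tested, because one gene of each had no usable value.

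Of 33 complex I subunits tested in round spermatids against spermatogonia, 4 rose, 11 fell and 18 did not pass. These shares were 12.1% and 33.3%, against 30.2% of all genes that rose and 35.3% that fell, with a median of -0.05, which turned to 0.35 with arrays centred on their medians. Among those that rose, Ndufb1, a small membrane-arm subunit, measured 8.96, 9.46, 9.79 and 9.11 in round spermatids, all above its 7.45, 7.18, 7.33 and 7.04 in spermatogonia, a change of 2.08 ± 0.20 (limma, adjusted p = 1.03e-07). It was a late riser, with 1.14 ± 0.29 in diplotene against mid pachytene cells. Ndufa12, an accessory subunit of the peripheral arm, measured 14.18, 14.15, 13.84 and 13.77 in round spermatids and 12.43, 12.33, 11.89 and 11.44 in spermatogonia, a change of 1.96 ± 0.27. Ndufc1 and Ndufb5 rose by 1.47 and 1.01 over the course, and in mid pachytene against leptotene/zygotene cells by 1.01 and 1.10.

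The complex I subunits that fell furthest were both X-linked. Ndufb11, a subunit of the membrane arm, measured 8.93, 7.33, 6.37 and 6.53 in round spermatids and 11.28, 10.23, 9.72 and 11.76 in spermatogonia, and Ndufa1, which complex I assembly requires, measured 10.78, 9.79, 9.46 and 8.94 in round spermatids and 13.51, 13.08, 13.26 and 12.72 in spermatogonia. They fell by 3.46 (SE 0.67) and 3.40 (SE 0.36) in round spermatids against spermatogonia, and by 3.59 (SE 0.94) and 1.61 (SE 0.51) in diplotene against mid pachytene cells. Both diplotene calls ended without the first mid pachytene array (adjusted p = 0.158 and 0.206) or the second diplotene array (0.175 and 0.323). In mid pachytene against leptotene/zygotene cells their changes of -1.02 ± 0.86 and -0.94 ± 0.46 did not pass, in a comparison where 192 of 419 X-linked genes fell, or 45.8%, against 14.2% of autosomal genes. In diplotene against mid pachytene cells 174 X-linked genes fell, or 41.5%, against 13.6% of autosomal genes, and over the course 61.8%, against 34.5%. Among autosomal subunits, Ndufs8, which carries iron-sulfur clusters on the path of electrons, measured 11.34, 11.28, 11.03 and 10.07 in round spermatids and 13.59, 13.20, 13.73 and 13.81 in spermatogonia. It fell by 2.65 (SE 0.32), and by 1.13 in round spermatids against diplotene cells (limma, adjusted p = 0.0429), a call that ended in 4 of the alternatives that leave arrays out, with an adjusted p of 0.509 without the first diplotene array. The core subunits Ndufs1, Ndufs3 and Ndufv2 changed by -0.06 ± 0.21, -0.03 ± 0.21 and 0.59 ± 0.18, below the threshold of log2 1.

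Complex I assembly factors help build the complex and are not part of it. Of the 8, 1 rose, 2 fell and 5 did not pass in round spermatids against spermatogonia. These shares were 12.5% and 25%, against 30.2% of all genes that rose and 35.3% that fell. Ndufaf3 rose in the same comparisons as the testis isoforms. It measured 7.44, 8.76, 7.08 and 7.40 in spermatogonia, 6.60, 8.07 and 7.21 in pre-leptotene cells, 8.29, 9.10 and 10.10 in leptotene/zygotene cells, 11.40 in early pachytene, 11.97 and 12.37 in mid pachytene, 12.62 in late pachytene, 12.71 and 12.91 in diplotene cells, and 11.56, 12.47, 12.44 and 12.38 in round spermatids. It rose by 1.87 ± 0.49 in leptotene/zygotene against pre-leptotene cells (limma, adjusted p = 0.0497), by 3.01 ± 0.55 in mid pachytene against leptotene/zygotene cells and by 4.54 ± 0.42 in round spermatids against spermatogonia. Ndufaf4, reported to act with Ndufaf3 in human cells, went the other way. It measured 7.23, 6.60, 6.34 and 6.41 in round spermatids and 10.99, 10.31, 10.44 and 10.25 in spermatogonia, and fell by 3.85 (SE 0.31). It had fallen by 1.75 in mid pachytene against leptotene/zygotene cells (SE 0.39) and by 2.39 in diplotene against mid pachytene cells (SE 0.43). Ndufaf6 was below the floor in all 4 round spermatid arrays, at 2.77, 2.53, 2.55 and 2.56, against 6.84, 6.39, 6.71 and 6.18 in spermatogonia, so that it fell by at least 2.53 (limma, adjusted p = 1.37e-09). The mid pachytene calls of Ndufaf4 and Ndufaf6 ended without the second mid pachytene array (adjusted p = 0.109 and 0.149).

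**Figure D2:**
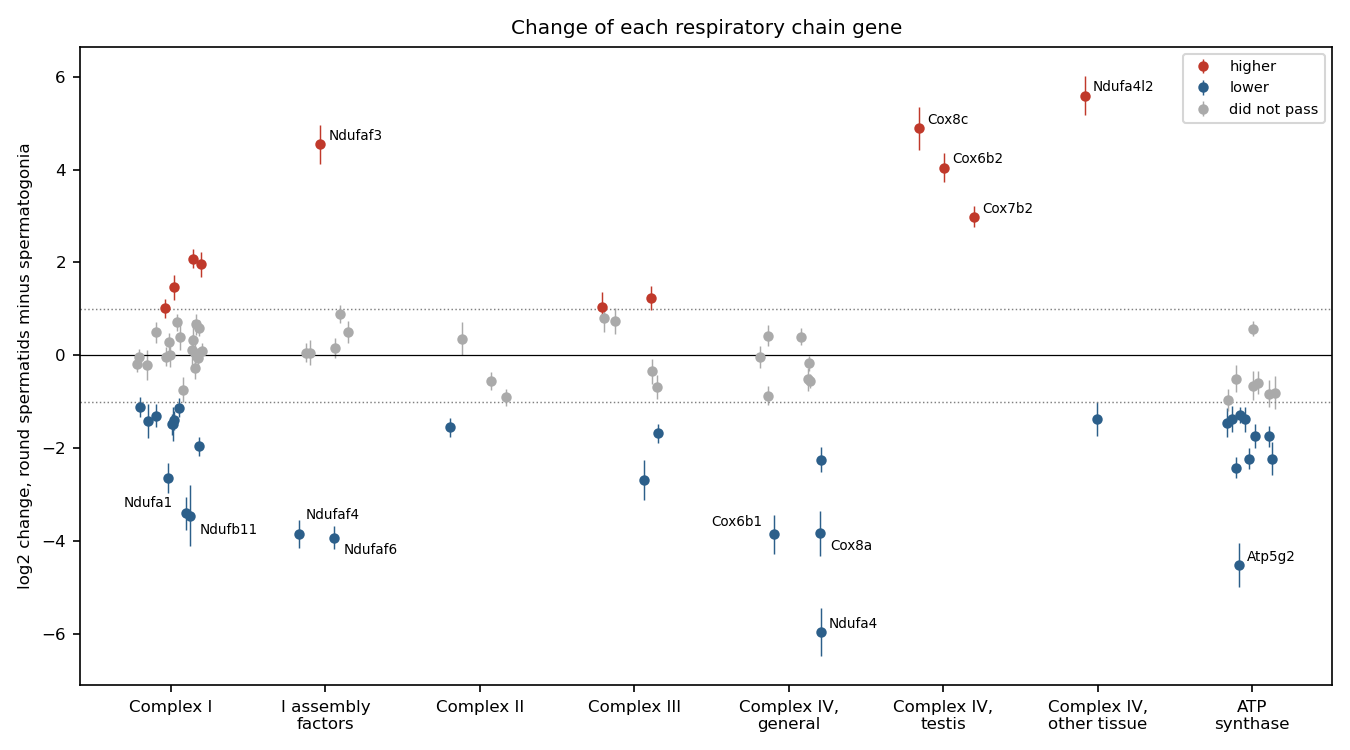
Fitted log2 change in round spermatids minus spermatogonia (4 arrays each) of the 86 genes, by complex, with bars of 1 SE, red for genes that rose, blue for genes that fell and grey for those that did not pass, and dotted lines at a change of 1 in either direction. The ATP synthase column lies almost wholly below 0 and the testis isoforms lie between 2.98 and 4.89; the points of Ndufa4l2 and Ndufaf6 are fitted values where 1 group was below the floor.

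In complex II, which also serves the citric acid cycle, 1 of 4 subunits fell and 0 rose in round spermatids against spermatogonia. The share that fell was 25%, against 35.3% of all genes, and 30.2% of all genes rose. The median change of the 4 was -0.73, against -0.16 for all genes. Sdhc, a membrane anchor, measured 8.47, 9.04, 8.80 and 9.04 in round spermatids, all below its 10.05, 10.31, 10.68 and 10.51 in spermatogonia, and fell by 1.55 (SE 0.20, limma adjusted p = 3.62e-06). The flavoprotein Sdha and the iron-sulfur protein Sdhb averaged 10.88 and 11.56 in round spermatids and 11.78 and 12.12 in spermatogonia, and their changes of -0.91 ± 0.18 and -0.56 ± 0.19 had adjusted p-values of 0.000277 and 0.0147 in limma but were below log2 1. The other anchor, Sdhd, changed by 0.36 ± 0.36. In complex III, 2 of 8 subunits rose and 2 fell, or 25% each, against 30.2% and 35.3% of all genes, and with quantile normalization 0 rose. The Rieske iron-sulfur protein Uqcrfs1 measured 11.09, 11.74, 12.24 and 11.83 in round spermatids and 10.27, 10.41, 10.82 and 10.44 in spermatogonia, a change of 1.24 ± 0.26. Uqcr10 passed at 1.03 ± 0.33 with arrays that overlapped, and its probe sets gave changes between 1.03 and 4.12. Uqcr11 and the hinge protein Uqcrh fell by 2.69 (SE 0.43) and 1.68 (SE 0.21), while the core proteins Uqcrc1 and Uqcrc2 changed by 0.74 ± 0.27 and -0.68 ± 0.26, below the threshold.

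Among the 11 general subunits of complex IV, 4 fell, 0 rose and 7 did not pass in round spermatids against spermatogonia, with a median of -0.56. The share that fell, 36.4%, was close to the 35.3% of all genes. Those that fell were Ndufa4, Cox6b1, Cox8a and Cox7c. Cox7c measured 4.43, 4.42, 4.45 and 4.41 in round spermatids, just above the floor, and 6.34, 6.65, 7.27 and 6.47 in spermatogonia, and fell by 2.25 (SE 0.27). That fall lay after prophase, by 1.74 in round spermatids against diplotene cells (SE 0.33, limma adjusted p = 0.00101). Cox5a, a subunit on the matrix side, changed by 0.40 ± 0.19.

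The ATP synthase was the complex with the lowest median. Of its 17 genes, 16 had fitted changes below 0 in round spermatids against spermatogonia, 10 fell, or 58.8%, against 35.3% of all genes, 0 rose, against 30.2%, and the median change was -1.38, against -0.16 over all genes tested. With arrays centred on their medians 7 of the 17 fell and the median was -0.98. The 3 genes for the proton-carrying c-ring, Atp5g1, Atp5g2 and Atp5g3, encode the same mature protein behind different import signals. Atp5g2 measured 8.77, 7.60, 7.15 and 6.34 in round spermatids and 12.37, 12.02, 11.92 and 11.65 in spermatogonia, a fall by 4.52 (SE 0.47, limma adjusted p = 2.21e-07). Atp5g1 measured 10.14, 9.46, 8.93 and 8.74 in round spermatids and 11.89, 11.52, 11.18 and 11.59 in spermatogonia, a fall by 2.23 (SE 0.35), and Atp5g3 fell by the same amount, at 11.38, 10.71, 10.73 and 10.54 in round spermatids and 13.15, 12.82, 12.96 and 13.36 in spermatogonia. In diplotene against mid pachytene cells Atp5g2 and Atp5g3 fell, with changes of -2.75 ± 0.66 and -1.01 ± 0.32, while Atp5g1 had a change of -1.37 ± 0.50 that did not pass (limma, adjusted p = 0.0603). In round spermatids against diplotene cells Atp5g3 fell by 1.24 (SE 0.28), and the changes of -0.39 ± 0.57 for Atp5g2 and -0.14 ± 0.43 for Atp5g1 did not pass. Differences between the 3 genes were not tested. The diplotene call of Atp5g2 ended without the first mid pachytene array (adjusted p = 0.1) or the second diplotene array (adjusted p = 0.131), as did that of Atp5g3 in spermatids without the first diplotene array (adjusted p = 0.101).

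The small membrane subunit Atp5mpl measured 12.84, 12.93, 12.66 and 12.71 in spermatogonia, 12.72, 12.39 and 12.38 in leptotene/zygotene cells, 12.87 in early pachytene, 11.62 and 11.09 in mid pachytene, 9.97 in late pachytene, 9.76 and 9.14 in diplotene cells, and 10.89, 10.46, 10.25 and 9.85 in round spermatids. It fell by 1.14 in mid pachytene against leptotene/zygotene cells (SE 0.29, limma adjusted p = 0.00849), a call that ended without the second mid pachytene array (adjusted p = 0.138). It fell by 1.91 in diplotene against mid pachytene cells (SE 0.32) and fell by 2.42 in round spermatids against spermatogonia (SE 0.23). The alpha subunit Atp5a1 averaged 10.94 ± 0.34 in round spermatids and 12.68 ± 0.43 in spermatogonia (SD, n = 4 each), without overlap, and fell by 1.74 (SE 0.25), whereas the catalytic beta subunit Atp5b changed by -0.59 ± 0.25. Only Atp5j, a stalk subunit, had a positive fitted change, 0.57 ± 0.16.

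**Figure D3:**
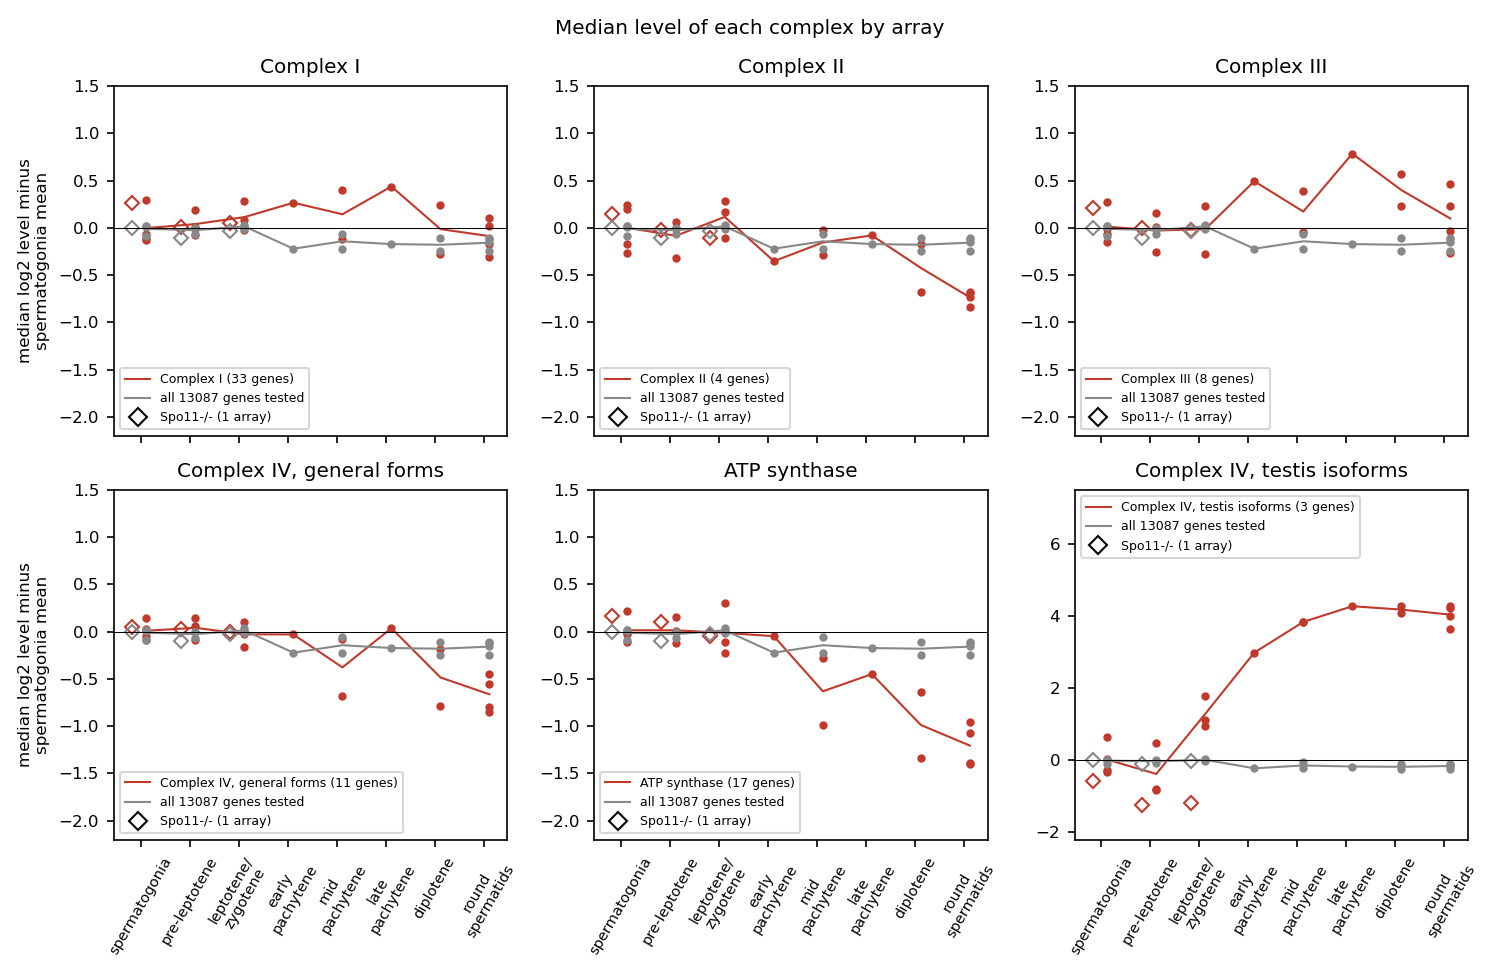
Median over the genes of each complex of log2 level minus that gene's spermatogonia mean, per wild-type array (points) with lines through fraction means, in developmental order; grey shows the same over all 13087 genes tested and open diamonds the Spo11-/- arrays. The panel of testis isoforms has its own scale; round spermatids average -1.21 for the ATP synthase, -0.66 for general complex IV, -0.74 for complex II, -0.09 for complex I, 0.10 for complex III and 4.04 for the testis isoforms, against -0.16 for all genes.

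In Spo11-/- cells the testis isoforms Cox8c and Cox6b2 fell, and no structural subunit outside the tissue and testis isoforms passed the test. The fit over 3 Spo11-/- and 10 wild-type arrays, with fraction as a term, tested 85 of the genes and 11980 genes in all. It took the 3 Spo11-/- arrays as independent. They may share mice, and the p-values then do not cover the spread between Spo11-/- animals. Of the 85, 0 rose and 2 fell, or 2.35%, against 1.63% of all genes that rose, 10% that fell and 11.7% in either direction, and their median change was 0.06, against -0.05 for all genes. Assembly factors and tissue or testis isoforms apart, 73 structural subunits were tested. Of these, 0 passed in limma and 7 had an unadjusted p below 0.05, with changes between -0.65 and 0.52. Spo11 itself measured 4.30, 4.80 and 5.21 in Spo11-/- spermatogonia, pre-leptotene and leptotene/zygotene cells, against ranges of 4.60 to 6.69, 4.61 to 7.03 and 7.42 to 8.95 in wild type, and whether its probe set lies in the deleted part is not known here.

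Cox8c measured 5.19, 5.17 and 5.67 in Spo11-/- spermatogonia, pre-leptotene and leptotene/zygotene cells, below every wild-type array of the same fraction, which reached down to 6.81, 6.36 and 9.38. It fell by 3.00 (SE 0.55, limma adjusted p = 0.00376). Cox6b2 measured 9.73, 9.07 and 9.12, against lowest wild-type values of 9.96, 9.47 and 11.16, and fell by 1.30 (SE 0.39, limma adjusted p = 0.0406). That call was lost without any of 8 arrays or without the first and second spermatogonia arrays together, with an adjusted p of up to 0.285. Cox7b2 and Ndufaf3 had changes of -0.59 ± 0.29 and -1.34 ± 0.58, which did not pass.

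With 1 Spo11-/- array in a fraction there is no test within it, and a gene was counted where it was outside the range of the wild-type arrays by log2 1 or more. This gave 1 of 85 genes lower in spermatogonia, against 9.27% of all genes, 1 in pre-leptotene cells, against 9.47%, and 4 in leptotene/zygotene cells, against 11.5%, with 0 higher in any fraction, against 0.659%, 7.44% and 1.5%. The gene in the first 2 fractions was Cox8c, and in leptotene/zygotene cells they were Cox8c, Ndufaf3, Cox6b2 and Cox7b2, which lay 4.23, 3.25, 2.44 and 1.66 below the wild-type mean. In wild type these are the 4 genes that rose in leptotene/zygotene against pre-leptotene cells. Both comparisons used the same wild-type leptotene/zygotene arrays, so the 2 lists are not independent. The interaction of fraction and genotype, which takes the lone Spo11-/- array to vary like wild type, called 0 of the 85 genes in limma, while 2 had an unadjusted p below 0.05. Late prophase markers moved with these genes, 7 of 7 falling in Spo11-/- arrays with a median change of -3.07. Of the spermatid markers 9 of 9 fell, and of all genes 10% fell. Ldhc, the lactate dehydrogenase of late spermatocytes, was at 2.95, 2.70 and 3.03 in the Spo11-/- arrays. It lay between 10.08 and 14.19 in the wild-type arrays of these fractions. The Spo11-/- pre-leptotene array also carried a leukocyte marker, Ptprc, at 12.91, against 2.68 to 5.31 in wild type. The part of these markers in the result was not tested.

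**Figure D4:**
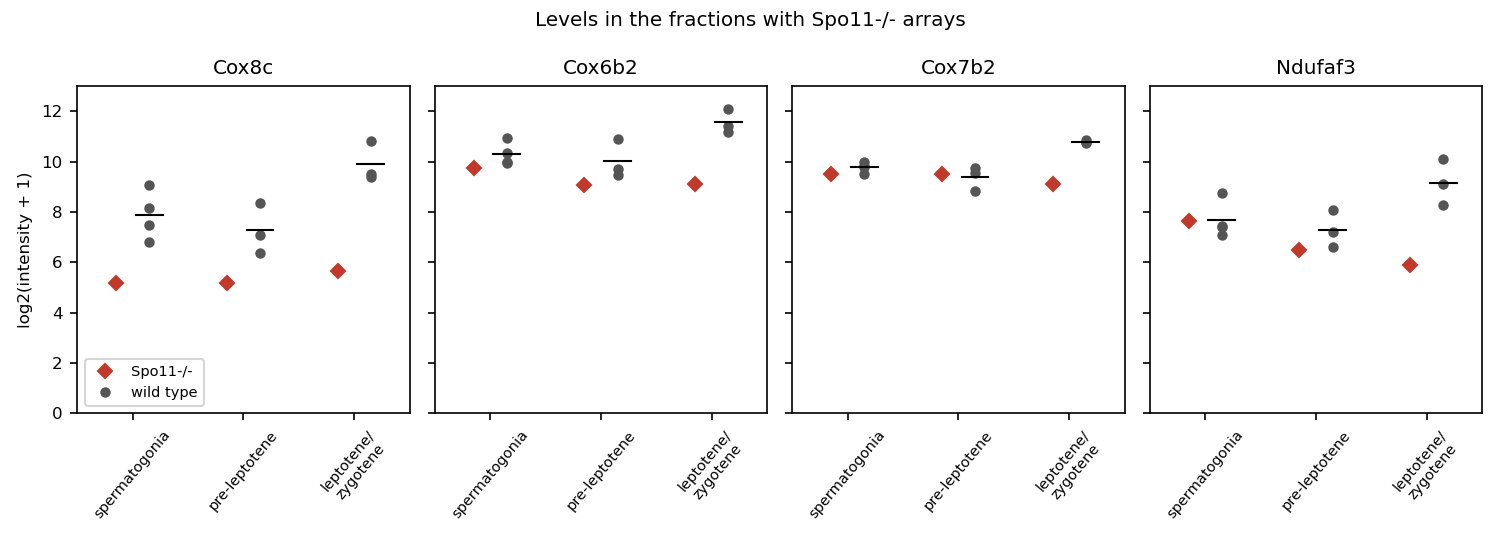
Log2(intensity + 1) of Cox8c, Cox6b2, Cox7b2 and Ndufaf3 in the 3 fractions with Spo11-/- arrays; red diamonds are the single Spo11-/- arrays and grey points the 4, 3 and 3 wild-type arrays, with a bar at their mean. The Spo11-/- leptotene/zygotene value, between 5.67 and 9.12, lies below every wild-type array of that fraction for all 4 genes.

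Other genes of the pathway were taken from 3 lists. The electron carriers cytochrome c and its docking subunit in complex III split by isoform. Cyct measured 12.09, 12.28, 12.31 and 12.20 in round spermatids and 9.76, 9.52, 8.98 and 10.13 in spermatogonia, a rise of 2.63 ± 0.22, with its highest value, 13.77, in late pachytene. It rose by 1.54 ± 0.25 in leptotene/zygotene against pre-leptotene cells and by 2.21 ± 0.28 in mid pachytene against leptotene/zygotene cells. Cycs measured 10.23, 8.34, 7.89 and 7.17 in round spermatids and 12.92, 12.46, 12.49 and 12.24 in spermatogonia, and fell by 4.12 (SE 0.60). Cyc1, the cytochrome of complex III, measured 9.23, 8.48, 8.33 and 7.99 in round spermatids and 12.68, 12.78, 12.99 and 12.59 in spermatogonia, and fell by 4.25 (SE 0.26, limma adjusted p = 9.97e-10).

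Of 37 assembly factors outside the choice by symbol that were tested, 8 rose and 13 fell in round spermatids against spermatogonia, or 21.6% and 35.1%, against 30.2% and 35.3% of all genes. The largest falls were of Ttc19 and Bcs1l, both needed for complex III, by 5.42 (SE 0.40) and 4.69 (SE 0.49), and of Coa7, a complex IV factor, by 4.16 (SE 0.51). The largest rises were of Lyrm7, which escorts the Rieske protein, by 4.27 ± 0.45, Cox16 by 2.70 ± 0.25 and Pet100 by 2.33 ± 0.37, both complex IV factors. Of 16 regulators of mitochondrial genome expression and biogenesis, 4 rose and 11 fell, or 25% and 68.8%, against 30.2% and 35.3% of all genes. Tfam, which packages the mitochondrial genome, measured 7.37, 7.18, 7.24 and 6.06 in round spermatids and 9.71, 9.82, 10.09 and 9.69 in spermatogonia, and fell by 2.87 (SE 0.26). The coactivator Pprc1 fell by 6.89 (SE 0.48), the GABP subunit Gabpb1 by 2.82 (SE 0.25) and the RNA stabiliser Lrpprc by 2.73 (SE 0.47), whereas its partner Slirp rose by 2.30 ± 0.29.

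The 3 lists also showed when these changes fell. In pre-leptotene cells against spermatogonia 0 of the 3 carriers, 37 assembly factors and 16 regulators passed in limma, against 1.7% of all genes. There 0 had an unadjusted p under 0.05. In leptotene/zygotene against pre-leptotene cells only Cyct passed or had an unadjusted p under 0.05, while 3.11% of all genes passed. In mid pachytene against leptotene/zygotene cells 4 regulators fell, with log2 changes of -2.25 for Gabpb1, -1.59 for Gabpa, -1.52 for Tfam and -1.44 for Nrf1, and 0 rose. These 4 of 16 are 25%, against 15.2% of all genes that fell and 14.2% that rose. In diplotene against mid pachytene cells 4 regulators fell, or 25%, against 14.5% of all genes. The log2 changes there were -3.52 for Pprc1 and -2.28 for Tfam. In round spermatids against diplotene cells 2 of 16 regulators rose and 3 fell, or 12.5% and 18.8%, against 12.5% and 12% of all genes. Those that rose were Tfam and Gabpb1, by 1.39 and 1.12. In Spo11-/- against wild-type cells 0 of 3 carriers, 0 of 37 assembly factors and 0 of 15 regulators passed in limma, against 11.7% of all genes. An unadjusted p under 0.05 was found for 2 carriers, 9 assembly factors and 3 regulators.

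Among the genes with a promoter window, the ETS letters stood in 9 of the 26 that fell in round spermatids against spermatogonia, in 0 of the 9 that rose and in 10 of the 37 that did not pass. The NRF1 letters stood in 5 of 26, 0 of 9 and 11 of 37, and the YY1 letters in 3, 1 and 6. These counts are given as a description, with no test.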

How the data were processed

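The deposited values are intensity on a linear scale, made by the authors with GCRMA, which corrects background, normalizes and summarises probes, per the submitters' processing notes; its version is not given in the sources used here. Values ran from 1.48 to 107451 and array medians from 10.6 to 12.6. The table held 45037 probe sets, of which 34945 had 1 gene symbol in the platform annotation, 932 several and 9160 were not listed; 34741 were matched to RefSeq by Entrez identifier. The probe set of highest mean over the 20 wild-type arrays stood for its gene, and 51 of the 90 respiratory chain genes had more than 1. Of 40 with at least 2 bright probe sets, 1 (Uqcr10) had probe sets that differed by over log2 1 in round spermatids against spermatogonia.

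Changes were tested on log2(value + 1) with limma 3.58.1 in R 4.3.3, keeping genes at log2 4 or more in 2 or more arrays, with Benjamini-Hochberg adjustment over all of them. The wild-type fit gave each fraction its own mean, from 20 arrays. The Spo11-/- fit had fraction and genotype over 13 arrays and took the 3 Spo11-/- arrays as independent, although they may share mice. Both fits were run on simulated data with independent arrays, in which only bright genes were given a change. That check cannot speak to shared mice or to genes of low level. The number of arrays limits the precision. A group below log2 4 on all arrays has only a bound. Isoform pairs were tested by exact permutation over arrays. Genes given values were, per comparison, the 4 largest rises and falls that passed without overlap of the arrays, the isoforms and paralogues, X-linked genes, complex II and up to 4 genes of a pathway list; others were chosen after their values were seen. Members and lists were chosen with earlier results of these data known. Replicate numbers of the labels were checked as pairs by correlating deviations from group means. Those of round spermatids and spermatogonia gave 0.40, 0.12, 0.10 and 0.16, and 4 of 4 arrays correlated best with their own number. Those of pre-leptotene cells and spermatogonia gave 0.53, 0.65 and 0.23, with 2 of 3 best. The labels do not state pairs, and the main fits and the exact permutation test took all arrays as unpaired. Pairing by number entered only as an alternative. Leptotene/zygotene against pre-leptotene cells gave 0.59, 0.08 and 0.27, also with 2 of 3 best. The check left pairing undecided there, and the other adjacent fractions had 2 pairs only. Alternatives were other scalings, filters, offsets, probe set rules and thresholds, array weights, the replicate block and leaving out arrays.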

Additional observations from a re-analysis of the deposited data

Results flagged for a closer look

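In groups of 4 arrays, a value was listed when its gap to the nearest other exceeded 0.829 of the group's range, which chance gives in about 1 of 20 groups; 4 of 60 groups were listed, all in round spermatids. Cox7a1 measured 3.19 on the fourth round spermatid array, against 4.19 to 4.23 on the other arrays, near the floor of log2 4. Ndufab1 measured 11.02 on the fourth array, against 11.56 to 11.65. Ndufaf3 measured 11.56 on the first array, against 12.38 to 12.47. Ndufaf6 measured 2.77 on the first array, against 2.53 to 2.56, all below the floor.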

How the results depend on the processing

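No call of a gene that the text follows turned its direction under the alternatives run, and of 2632 values of single genes under an alternative 2512 kept their side of the threshold, 34 passed newly and 86 no longer passed. The median change of the respiratory chain genes did turn, from -0.17 to 0.13 in diplotene against mid pachytene cells with median centring and to 0.10 or 0.13 without the first mid pachytene or second diplotene array, from -0.16 to 0.13 in mid pachytene against leptotene/zygotene cells without the second mid pachytene array, and from -0.18 to 0.08 in round spermatids against diplotene cells without the first diplotene array; medians within 0.1 of 0 in the other adjacent comparisons and in Spo11-/- cells turned too. The 5 isoform pairs kept their direction, and kept an adjusted exact p of 0.0286 with the mean of all probe sets, the larger offset and quantile normalization. Leaving out 1 array gave an exact p of 0.0571, the smallest that 3 against 4 arrays allow, with ranges of 7.72 to 8.26, 8.43 to 9.27, 11.13 to 12.35, -1.99 to -1.57 and 6.34 to 7.40 for Cox6b2, Cox8c, Ndufa4l2, Cox7a1 and Cyct. Genes past the test numbered 0 to 0 in pre-leptotene cells against spermatogonia and 41 to 44 in round spermatids against spermatogonia on leaving out 1 array. The other ranges were 0 to 4 in leptotene/zygotene against pre-leptotene cells, 4 to 15 in mid pachytene against leptotene/zygotene cells (4 without the second mid pachytene array), 5 to 16 in diplotene against mid pachytene cells (6 without the first mid pachytene array, 5 without the second diplotene array), 3 to 10 in round spermatids against diplotene cells (3 without the first diplotene array, 10 without the second, 9 without the first spermatid array), and 1 to 2 in Spo11-/- against wild-type cells.

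In leptotene/zygotene against pre-leptotene cells the count was 2 with no filter, 2 with median centring and 0 with the 2 fractions alone, where limma gave 4 at an unadjusted p below 0.05. In diplotene against mid pachytene cells it was 1 with the 2 fractions alone. In round spermatids against diplotene cells it was 1 with the mean of all probe sets, 11 with no minimum fold, 11 with a minimum of log2 0.5 and 2 with the 2 fractions alone. In Spo11-/- against wild-type cells it was 1 with no filter, 1 with median centring, 4 with array weights, 1 without the first and second spermatogonia arrays, and 0 in spermatogonia alone or in pre-leptotene cells alone. Fits of 2 fractions alone hold fewer arrays; the cause of the other differences was not tested. With replicate numbers as a block 16 genes passed in mid pachytene against leptotene/zygotene cells (6 higher, 10 lower), and in round spermatids against diplotene cells 5 genes passed, of which 2 were higher and 3 lower in place of 0 and 5; the block moved no other count past 1.5 times. It left 42 genes past the test in round spermatids against spermatogonia and 0 in pre-leptotene cells against spermatogonia. Paired by number, the isoform pairs had the same differences of 7.90, 8.72, 11.55, -1.79 and 6.74, with an exact p of 0.125 each.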

Other observations

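Several subunits were measured only by probe sets that name more than 1 gene, and they entered no comparison. The brighter probe set for Ndufa11b or Ndufa11 averaged 10.17 ± 0.42 in round spermatids and 12.65 ± 0.18 in spermatogonia (SD, n = 4 each), a difference of -2.48. The probe set for Ndufs6b or Ndufs6 averaged 11.56 ± 0.37 in round spermatids and 11.34 ± 0.42 in spermatogonia. Both probe sets for Ndufb4 and its copies were higher in round spermatids, at 11.71 ± 0.35 against 11.13 ± 0.30 and at 12.55 ± 0.44 against 11.74 ± 0.37 in spermatogonia. The probe set for Ndufs5 or Ndufs5-ps averaged 12.03 in round spermatids and 12.12 in spermatogonia.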
